A study of Arabidopsis thaliana with 6 samples.

Results

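The genes described here are 43 transcription factor genes of the AP2/ERF family of Arabidopsis thaliana: ethylene response factors (ERF), related-to-AP2 genes (RAP2), the cold-response factors CBF1 to CBF3 with DDF1, and cytokinin response factors (CRF). They were chosen by locus code from group membership in the family, with earlier results of these data known. The choice did not take in every gene of these groups. All 43 were found among the 27827 probe sets of the table. Total RNA was taken from seedlings of the mutant naa20-1 (3 samples) and of the wild-type accession Col-0 (3 samples), with 1 array per sample. The mutant is described by the submitters as depleted of the catalytically active subunit of NatB, the acetyltransferase complex that modifies the first residue of a large group of proteins. Seedlings of both groups were 17 days old and had grown on MS medium in short days with 8.5 h of light, and the labels give no treatment. The lesion in the naa20-1 allele and the number of plants per sample are not stated in the labels.

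Proteins of this family share a DNA-binding domain, the AP2/ERF domain, and differ in what they bind and in what induces them. Many ERF proteins bind the GCC box of defence genes and act downstream of ethylene and jasmonate, CBF proteins bind the dehydration-responsive element of cold and drought genes, and CRF proteins form a side branch of cytokinin signalling. Many of the genes are switched on within minutes by wounding, touch, pathogens or cold, so their transcripts in undisturbed seedlings are often scarce.

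Values below are log2 expression after RMA, given for naa20-1 replicates 1, 2 and 3 and then Col-0 replicates 1, 2 and 3. Means are ± SD with n = 3, each difference is naa20-1 minus Col-0 with the moderated SE of the fit, and intervals cover 95%. A gene was called, and is said to have fallen or risen, at an adjusted p under 0.05 in limma, with p-values adjusted by Benjamini-Hochberg across 27241 genes. Nothing in the labels says that the 3 samples of a group are separate cultures, so the p-values cover only how far these samples vary, and that variation may be technical. The table gives no detection calls. A gene whose 6 values were all below 3.76, the 25th percentile of the values of these 27241 genes, is called dim here, because its signal may be background.

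The arrays were alike as a whole. Across genes, Pearson correlations between arrays of 1 genotype ranged from 0.993 to 0.995, and those between genotypes from 0.990 to 0.993. All arrays but naa20-1 replicate 1 held the same set of values in another order, and that array departed from it by at most 0.0019. NAA20, the gene named by the mutant, was at 8.10, 7.60 and 7.36 in naa20-1, against 8.79, 8.75 and 8.72 in Col-0 (difference -1.07, SE 0.18, adjusted p = 0.0407). The NAA20 call held without naa20-1 replicate 1 (adjusted p = 0.0181) and was lost at adjusted p-values from 0.0770 to 0.135 when any other sample was left out. NAA25, the gene of the auxiliary NatB subunit, had a difference of 0.09 (SE 0.08, adjusted p = 0.669). Leaf markers averaged 12.01 to 12.05 per array in naa20-1 and 12.09 to 12.12 in Col-0 over 10 genes, with 0 called by limma and 2 lower at an unadjusted p under 0.05. Of the 10 leaf differences 7 were negative. The naa20-1 values lay entirely below those of Col-0 in 5 leaf markers and entirely above in 1. Root markers averaged 7.19 to 7.33 in naa20-1 and 7.44 to 7.53 in Col-0 over 19 genes. None of the root markers was called by limma, 7 were lower and 1 higher at an unadjusted p under 0.05, and 14 of the 19 differences were negative. In 7 root markers the naa20-1 values lay entirely below those of Col-0 and in 1 entirely above, against 10.5% and 10.6% of all genes. The root aquaporin gene TIP2;3 had the smallest p of the root markers (difference -0.69, SE 0.12), just over the threshold once adjusted.

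Of the 43 genes, 3 fell in naa20-1, 0 rose and 40 did not pass. The genes that fell were ERF2 (AT5G47220), an activator of ethylene and jasmonate defence genes, and the cytokinin response factor genes CRF2 (AT4G23750) and CRF10 (AT1G68550). Called lower were 6.98% of the members, against 0.767% of all genes tested; called higher were 0 members, against 0.382% of all genes, or 1.15% of all genes in either direction. Including the called genes, 12 members were lower and 0 higher at an unadjusted p under 0.05, where 7.19% of all genes were lower and 7.02% higher at that level (14.2% in either direction). The median difference of the 43 members was -0.14, against 0.005 for all genes, and 32 of the 43 differences were negative. The 3 naa20-1 values lay entirely below those of Col-0 in 14 members and entirely above in 1, against 10.5% and 10.6% of all genes (21.0% in either direction). Dim members numbered 13, against 5740 of the 27241 genes tested. Because the members were chosen with earlier results of these data known, these shares are no test of the family. A list of 34 other family genes had a median difference of 0.004, with 17 negative and 17 positive differences.

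**Figure D1:**
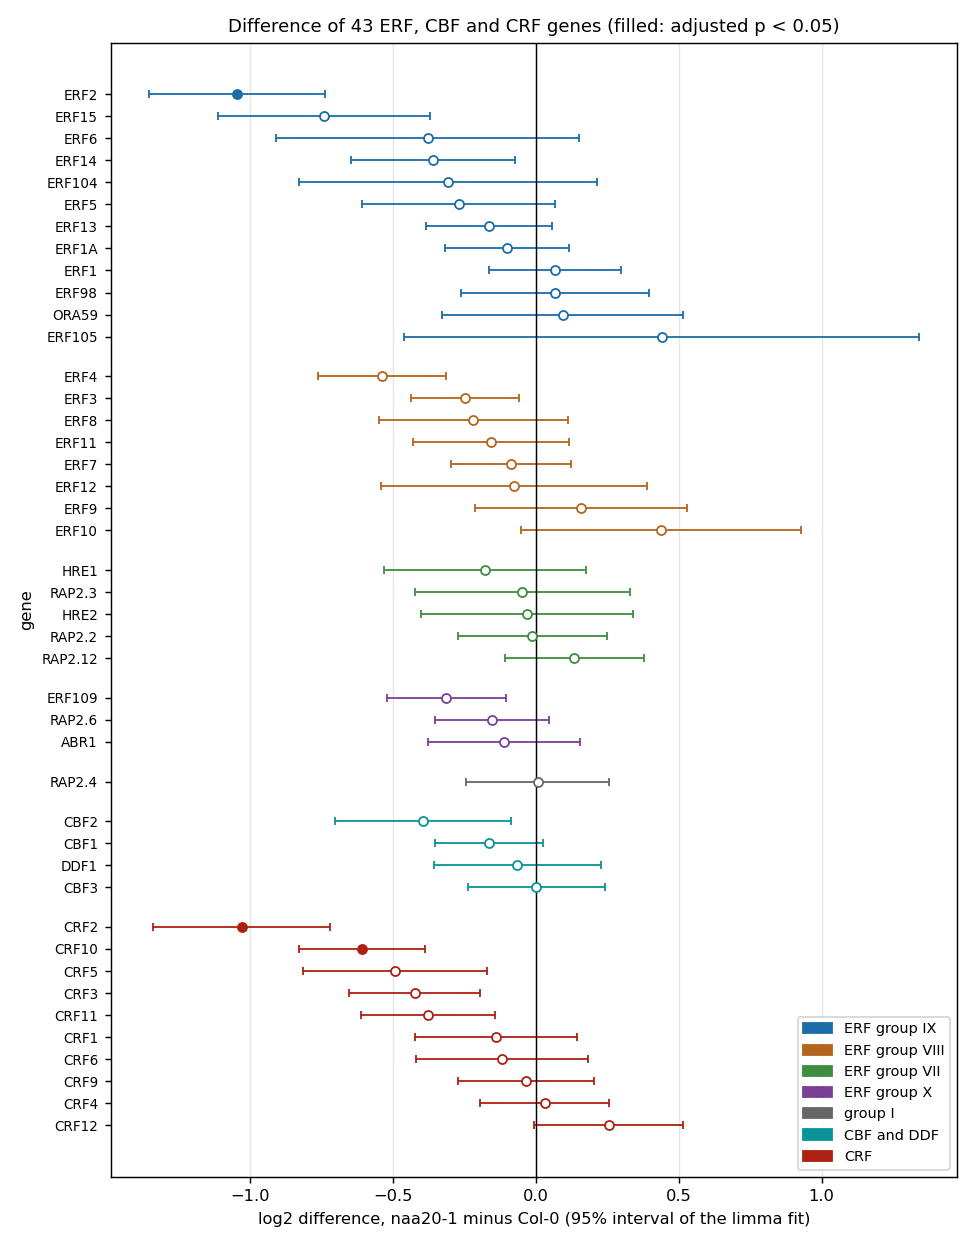
Difference in log2 expression between naa20-1 and Col-0 for the 43 genes, grouped by subfamily and sorted within it. Points are the differences, bars the 95% intervals of the limma fit with 3 samples per group, and filled points are called genes. ERF2, CRF2 and CRF10 are filled and all lie left of 0, and ERF105 has the widest interval, from -0.46 to 1.34.

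The group IX ERF genes encode mostly activators that bind the GCC box and answer to ethylene, jasmonate and pathogens. Of the 12, 1 fell and 11 were not called, with 8 negative differences. ERF2 was at 5.30, 5.57 and 5.39 in naa20-1, against 6.28, 6.43 and 6.70 in Col-0. The groups did not overlap, and the gap between the highest naa20-1 value and the lowest Col-0 value was wider than the range within either group. The means were 5.42 ± 0.14 in naa20-1 and 6.47 ± 0.21 in Col-0, a level 2.07-fold lower in the mutant (log2 -1.05, SE 0.13, adjusted p = 0.0172). ERF2 was no longer called without naa20-1 replicate 1 (adjusted p = 0.0559) or 3 (0.0567), or without Col-0 replicate 2 (0.0711) or 3 (0.0584), while the difference stayed between -1.14 and -0.93. Because the RNA came from bulk seedlings, fewer cells that express a gene and less RNA per cell cannot be told apart, here and in the results below.

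ERF15 and ERF14 of group IX were also lower in all 3 naa20-1 samples without passing the test. ERF15, a factor of abscisic acid and immune responses, was at 3.15, 2.91 and 3.34 in naa20-1, against 3.67, 3.80 and 4.15 in Col-0 (difference -0.74, SE 0.16, adjusted p = 0.0901). All 3 of its naa20-1 values and 1 Col-0 value were below the level used here to call a gene dim, so the size of this difference is uncertain. ERF14, which takes part in pathogen defence, was at 4.92, 4.63 and 5.002 in naa20-1, against 5.30, 5.26 and 5.07 in Col-0 (difference -0.36, SE 0.12, adjusted p = 0.246).

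ERF1 and ORA59, which act at the point where ethylene and jasmonate meet in the induction of defensins, were both dim. ERF1 was at 2.41, 2.53 and 2.52 in naa20-1, against 2.37, 2.32 and 2.58 in Col-0. ORA59 was at 2.27, 2.85 and 2.27 in naa20-1, against 2.32, 2.58 and 2.205 in Col-0. In both genes the groups overlapped, and the intervals of the difference ran from -0.17 to 0.30 for ERF1 and from -0.33 to 0.51 for ORA59. ERF13, the third dim gene of the group, had a difference of -0.16. ERF1A (-0.10), named for its binding to the GCC box, and ERF98 (0.07), a factor of ascorbate synthesis and salt tolerance, had overlapping groups as well.

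ERF5, ERF6, ERF104 and ERF105 are related genes induced by stress, and ERF6 and ERF104 proteins are substrates of the mitogen-activated protein kinases of pathogen signalling. Their values differed more between samples of 1 genotype than those of most genes. ERF105 was at 5.31, 4.65 and 5.84 in naa20-1, against 5.60, 4.44 and 4.43 in Col-0. Naa20-1 replicate 3 and Col-0 replicate 1 were the highest samples of their groups, and the groups overlapped widely (difference 0.44, SE 0.39, adjusted p = 0.670). The SD within groups was 0.63, larger than that of 99.7% of all genes.

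ERF6 was at 5.28, 5.25 and 5.78 in naa20-1, against 6.28, 5.65 and 5.51 in Col-0 (difference -0.38, SE 0.23, adjusted p = 0.516). ERF104 was at 7.57, 7.38 and 8.12 in naa20-1, against 8.34, 7.72 and 7.93 in Col-0 (difference -0.31, SE 0.22, adjusted p = 0.599). In both genes the highest sample was again replicate 3 in naa20-1 and replicate 1 in Col-0. ERF5 was at 3.83, 3.74 and 4.26 in naa20-1, against 4.25, 4.27 and 4.12 in Col-0 (difference -0.27, SE 0.14, adjusted p = 0.462). Averaged over these 4 genes, the samples lay at -0.22, -0.46 and 0.29 in naa20-1 and at 0.41, -0.19 and -0.21 in Col-0, relative to the Col-0 mean. Relative to the Col-0 mean, the average of all 43 members was -0.18, -0.22 and -0.14 in naa20-1 and 0.05, -0.04 and -0.01 in Col-0.

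Other genes that touch, wounding and defence induce quickly were compared as a list of 20. Of these, 4 fell, 0 rose and 16 were not called, with a median difference of -0.28 and 16 negative differences. Across all genes, 0.767% were called lower and 0.382% higher, and 48.8% of differences were negative. The list was chosen with earlier results of these data known, so these counts are no test of it. CML12, a calmodulin-like gene induced by touch, fell to 8.51, 8.44 and 8.20 in naa20-1, against 9.29, 9.36 and 9.47 in Col-0 (difference -0.99, SE 0.11, adjusted p = 0.0115). The immune transcription factor genes WRKY18 (difference -0.69, adjusted p = 0.0193), WRKY53 (-0.87, adjusted p = 0.0225) and WRKY33 (-0.75, adjusted p = 0.0445) were the others. Without any 1 of the Col-0 samples 0 of the 20 were called.

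ZAT10, a zinc finger repressor of the stress response, was at 6.39, 5.66 and 6.92 in naa20-1, against 7.84, 7.19 and 7.07 in Col-0 (difference -1.04, SE 0.33, adjusted p = 0.210). WRKY40, named here after its values were seen, was at 6.22, 5.73 and 6.67 in naa20-1, against 7.34, 7.09 and 6.50 in Col-0 (difference -0.77, SE 0.28, adjusted p = 0.274). In both genes the highest samples were naa20-1 replicate 3 and Col-0 replicate 1, as in ERF6, ERF104 and ERF105. CML12 had the reverse order, with naa20-1 replicate 3 and Col-0 replicate 1 the lowest samples of their groups. How many genes of the list, or of all genes, share either order was not counted.

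**Figure D2:**
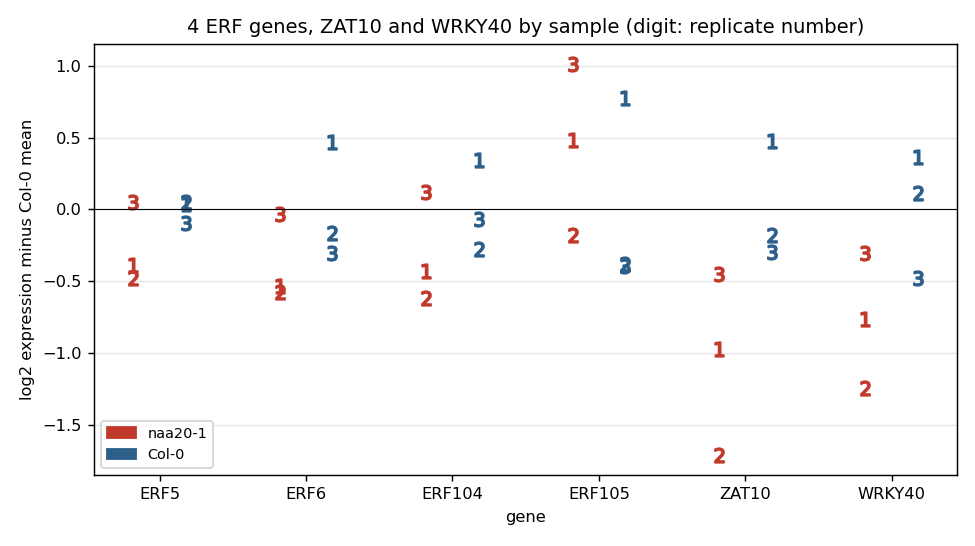
Log2 expression relative to the Col-0 mean of each gene, for ERF5, ERF6, ERF104, ERF105, ZAT10 and WRKY40. Each digit is 1 sample and gives its replicate number, with naa20-1 left of Col-0 for each gene. Replicate 3 is the highest naa20-1 sample in all 6 genes, and replicate 1 the highest Col-0 sample in all but ERF5. WRKY40 was picked after its values were seen, and CML12, which had the reverse order, is not shown.

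In the ethylene pathway upstream of the ERF genes, no gene of the lists examined was called. Of 11 genes of ethylene synthesis, 0 were called by limma, and 3 were higher and 2 lower at an unadjusted p under 0.05. ACS4, a synthase of the ethylene precursor, was at 5.46, 5.18 and 5.08 in naa20-1, against 4.02, 4.55 and 4.52 in Col-0 (difference 0.87, SE 0.17, adjusted p = 0.0683). The synthase gene ACS7 had a difference of 0.40 (adjusted p = 0.296), and the genes of the final enzyme, ACO4 and ACO1, had differences of -0.29 (adjusted p = 0.166) and -0.46 (adjusted p = 0.219). The groups did not overlap in any of these 4 genes, the 2 synthase genes being higher and the 2 oxidase genes lower in naa20-1. Among all 11 genes, 3 were higher and 3 lower without overlap, against 10.6% and 10.5% of all genes. The synthase genes did not share 1 sign: ACS8 was higher (difference 0.46) and the dim ACS2 lower (-0.23), both without overlap.

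Of 14 genes of ethylene perception and signalling, 0 were called by limma, 2 were lower and 0 higher at an unadjusted p under 0.05, and the median difference was -0.06. These 2 were EBF2 (difference -0.45, SE 0.10, adjusted p = 0.0845) and EBF1 (-0.26, SE 0.10, adjusted p = 0.319), which encode the F-box proteins that mark the transcription factor EIN3 for degradation and are themselves induced by ethylene.

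Of 10 output genes of ethylene and jasmonate, 1 fell, 0 rose and 9 were not called, with 4 lower and 2 higher at an unadjusted p under 0.05. PR4, a chitin-binding defence protein gene, fell to 9.89, 9.91 and 9.70 in naa20-1, against 10.36, 10.37 and 10.36 in Col-0 (difference -0.53, SE 0.09, adjusted p = 0.0459). Leaving out any 1 sample gave adjusted p-values from 0.0831 to 0.155 for PR4. The chitinase-like gene AT2G43590 was 2.05-fold lower (adjusted p = 0.0568), and MYC2, the main transcription factor of jasmonate signalling, had a difference of -0.72 (SE 0.16, adjusted p = 0.0946). PR3, a basic chitinase gene with a GCC box, had a difference of -0.25 (adjusted p = 0.215). The other sign was shown by PDF1.2a, the defensin gene that marks joint ethylene and jasmonate output, which was dim, at 2.33, 2.35 and 2.24 in naa20-1, against 2.14, 2.08 and 2.03 in Col-0 (difference 0.23, SE 0.08, adjusted p = 0.282). Its groups did not overlap, whereas those of HLS1, a gene of apical hook formation, did (difference 0.31, SE 0.12, adjusted p = 0.314). Both genes were named after their values were seen. Of the 10 output genes, 5 were dim.

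The group VIII ERF genes encode repressors that carry an EAR motif and also bind the GCC box. None of the 8 was called by limma, 2 were lower and 0 higher at an unadjusted p under 0.05, and 6 differences were negative. ERF4 (AT3G15210), a repressor of ethylene and jasmonate responses, was at 7.99, 8.02 and 8.24 in naa20-1, against 8.64, 8.61 and 8.62 in Col-0. The groups did not overlap, and the Col-0 samples lay close together (SD 0.01). The difference of -0.54 (SE 0.10, interval -0.76 to -0.32) missed the threshold narrowly at an adjusted p of 0.0513. It was called when the dimmest 40% of probe sets were left out (adjusted p = 0.0240), with a variance trend and robust fit (0.00737) and without naa20-1 replicate 3 (0.0412). ERF4 was not called in any other alternative. Its adjusted p was 0.120 with the replicate number as a block, and from 0.134 to 0.168 when any other sample was left out.

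ERF3, another EAR repressor, was at 10.87, 10.82 and 10.86 in naa20-1, against 11.10, 11.16 and 11.04 in Col-0 (difference -0.25, SE 0.08, adjusted p = 0.228). ERF10 had the opposite sign, at 5.44, 5.83 and 4.94 in naa20-1, against 5.10, 4.94 and 4.85 in Col-0. Its groups overlapped, and naa20-1 replicate 2 was the highest sample (difference 0.44, SE 0.21, adjusted p = 0.410). The remaining 5 had overlapping groups, with differences of -0.22 for ERF8, -0.16 for the dim ERF11, -0.09 for ERF7, a repressor of the abscisic acid response, -0.08 for ERF12 and 0.16 for ERF9, a repressor of defensin genes.

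**Figure D3:**
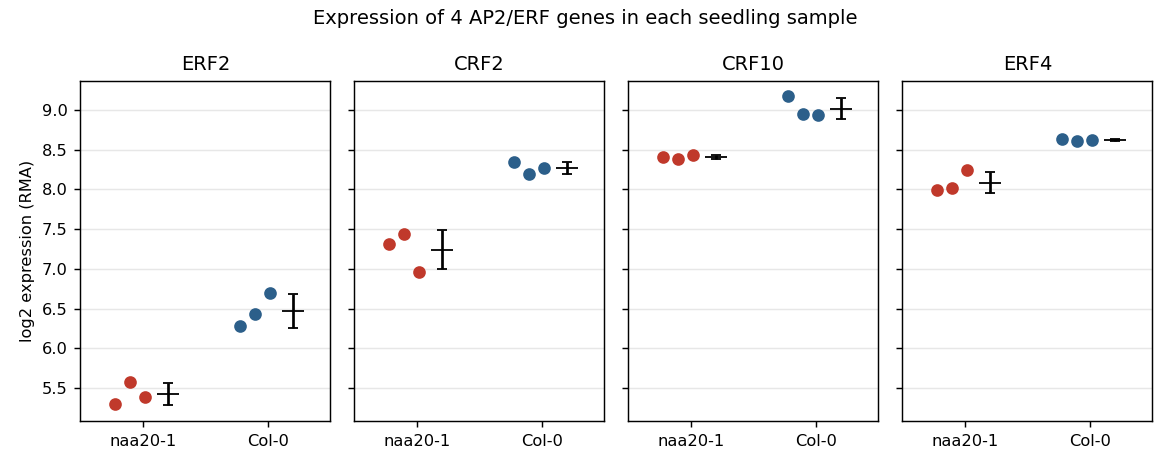
Log2 expression of ERF2, CRF2, CRF10 and ERF4 in each sample, naa20-1 left of Col-0. Dots are samples in the order of replicates 1 to 3, and bars give the mean ± SD of 3. In each gene all 3 naa20-1 samples lie below all 3 Col-0 samples, with means of 8.08 in naa20-1 and 8.62 in Col-0 for ERF4, which missed the threshold.

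The group VII factors set the response to low oxygen. RAP2.2, RAP2.3 and RAP2.12 are made at all times, and their proteins are degraded in air through an N-terminal cysteine exposed when the initiator methionine is removed. HRE1 and HRE2 are induced by low oxygen. None of the 5 genes was called by limma, 0 had an unadjusted p under 0.05, and the groups overlapped in all 5.

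RAP2.12 was at 11.59, 11.54 and 11.32 in naa20-1, against 11.38, 11.41 and 11.25 in Col-0 (difference 0.13, interval -0.11 to 0.38). RAP2.2 was at 10.07, 9.90 and 9.81 in naa20-1, against 10.09, 9.92 and 9.81 in Col-0 (difference -0.01, interval -0.27 to 0.25). RAP2.3 was at 9.14, 8.70 and 8.50 in naa20-1, against 8.85, 8.76 and 8.87 in Col-0 (difference -0.05, interval -0.42 to 0.33). These intervals leave out a 2-fold change in either direction. The arrays measure transcripts, so they give no measure of these proteins. HRE1 (difference -0.18) and HRE2 (-0.03) were dim.

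Of 16 genes of the hypoxia response and of the N-degron pathway, which degrades proteins by their first residue, 0 were called by limma, 1 was higher and 2 were lower at an unadjusted p under 0.05, and the median difference was -0.04. SUS4, a sucrose synthase gene induced by low oxygen, was at 5.43, 5.77 and 6.08 in naa20-1, against 6.53, 6.55 and 6.54 in Col-0 (difference -0.78, SE 0.16, adjusted p = 0.0747). HRA1, a hypoxia-induced repressor of RAP2.12, had the opposite sign (difference 0.37, SE 0.12, adjusted p = 0.223), and SUS1, the other sucrose synthase gene of the list, had a difference of -0.40 (adjusted p = 0.342).

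The group X genes and RAP2.4 answer to wounding, oxidative stress and abscisic acid. None of the 4 was called by limma, and 1 had an unadjusted p under 0.05. ERF109, a factor linking jasmonate and reactive oxygen to growth after wounding, was at 3.34, 3.23 and 3.18 in naa20-1, against 3.56, 3.50 and 3.64 in Col-0 (difference -0.31, SE 0.09, adjusted p = 0.170). It was lower in all 3 naa20-1 samples but dim. RAP2.6, an abscisic acid and jasmonate responsive gene, was at 8.86, 8.72 and 8.89 in naa20-1, against 8.98, 8.95 and 9.01 in Col-0 (difference -0.15, adjusted p = 0.481), also without overlap. ABR1, a repressor of the abscisic acid response, had a difference of -0.11. RAP2.4, which is also known as the wound-induced regulator of dedifferentiation WIND1, was at 9.21, 9.22 and 9.52 in naa20-1, against 9.34, 9.29 and 9.30 in Col-0, with an interval of the difference from -0.24 to 0.26.

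CBF1, CBF2 and CBF3 are induced within minutes of cold and drive the cold-regulated genes, and DDF1 is a close relative that acts in salt tolerance through gibberellin breakdown. All 4 were dim, and none was called by limma. CBF2 was at 2.37, 2.44 and 2.32 in naa20-1, against 2.88, 2.49 and 2.96 in Col-0 (difference -0.39, SE 0.13, adjusted p = 0.235). CBF1 was at 2.25, 2.26 and 2.18 in naa20-1, against 2.44, 2.34 and 2.397 in Col-0 (difference -0.16, adjusted p = 0.425). In these 2 genes the naa20-1 samples lay below the Col-0 samples, and in CBF3 (difference 0.002) and DDF1 (-0.07) the groups overlapped. With no cold treatment and signals below the 25th percentile used here, the arrays do not test cold induction.

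Of 18 regulators of the CBF genes, 0 were called by limma, and 2 were higher and 3 lower at an unadjusted p under 0.05. PIF4, a light and temperature signalling factor that represses CBF genes, was at 9.47, 9.56 and 9.47 in naa20-1, against 9.01, 9.04 and 9.09 in Col-0 (difference 0.45, SE 0.08, adjusted p = 0.0535). CAMTA3, a calmodulin-binding activator of CBF2 and a repressor of salicylic acid immunity, was at 7.99, 8.04 and 8.04 in naa20-1, against 8.40, 8.32 and 8.34 in Col-0 (difference -0.33, SE 0.08, adjusted p = 0.120). Neither gene had overlapping groups. The kinase gene OST1 (difference 0.38, adjusted p = 0.161) and HOS1, a gene of cold signal attenuation (-0.26, adjusted p = 0.209), had the next smallest p-values.

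Of 15 cold-regulated genes downstream, 0 were called by limma, 2 were lower and 0 higher at an unadjusted p under 0.05, and the median difference was -0.09. KIN1, a small cold-induced protein gene, was at 3.48, 3.82 and 4.22 in naa20-1, against 4.46, 4.77 and 4.34 in Col-0 (difference -0.68, adjusted p = 0.176), and ZAT10, described above, was the other. Relative to the Col-0 mean, the 15 genes averaged -0.30, -0.32 and 0.37 in naa20-1 and 0.03, -0.05 and 0.03 in Col-0. Replicate 3 of naa20-1 thus lay above all Col-0 samples, and naa20-1 replicates 1 and 2 lay below them. Among genes named after their values were seen, ELIP1, a light stress protein gene, was at 7.40, 7.44 and 9.42 in naa20-1, against 7.20, 7.10 and 7.003 in Col-0. COR15A, a chloroplast protein gene of cold acclimation, was at 11.83, 12.25 and 13.08 in naa20-1, against 12.21, 12.29 and 12.15 in Col-0.

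Of the 10 CRF genes, 2 fell and the other 8 were not called, while 8 of the 10 differences were negative, with a median of -0.26. At an unadjusted p under 0.05, 5 were lower and 0 higher. CRF7 and CRF8, which are in the list of other family genes and not among the members, did not share this sign. Their differences were 0.009 and 0.11, with overlapping groups. Several CRF genes are induced by cytokinin, and their proteins move to the nucleus when the hormone is perceived and share targets with the type-B response regulators.

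CRF2, which acts in cytokinin response and lateral root initiation, was at 7.31, 7.44 and 6.96 in naa20-1, against 8.34, 8.19 and 8.27 in Col-0. The groups did not overlap, and the lowest sample was naa20-1 replicate 3. The means were 7.24 ± 0.25 in naa20-1 and 8.27 ± 0.08 in Col-0, a level 2.04-fold lower (log2 -1.03, SE 0.13, adjusted p = 0.0193). CRF2 was no longer called without naa20-1 replicate 1 (adjusted p = 0.0521) or without Col-0 replicate 1 (0.0815), 2 (0.0688) or 3 (0.0795), with differences from -1.13 to -0.89 over the single omissions.

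CRF10 was at 8.41, 8.38 and 8.43 in naa20-1, against 9.17, 8.94 and 8.94 in Col-0. The mutant samples lay close together, and the groups did not overlap. The means were 8.41 ± 0.02 in naa20-1 and 9.02 ± 0.13 in Col-0, a level 1.52-fold lower (log2 -0.61, SE 0.09, adjusted p = 0.0344). Leaving out any 1 sample ended the call, with adjusted p-values from 0.0795 to 0.112 and differences from -0.65 to -0.53.

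CRF3, CRF11 and CRF5 were also lower in all 3 naa20-1 samples without passing the test. CRF3, a gene of lateral root initiation, was at 6.31, 6.22 and 6.25 in naa20-1, against 6.83, 6.55 and 6.68 in Col-0 (difference -0.42, SE 0.10, adjusted p = 0.112). CRF11 was at 6.27, 6.33 and 6.28 in naa20-1, against 6.84, 6.55 and 6.61 in Col-0 (difference -0.38, SE 0.10, adjusted p = 0.153). CRF5, a gene of embryo and leaf development, was at 6.18, 6.28 and 6.03 in naa20-1, against 6.54, 6.93 and 6.49 in Col-0 (difference -0.49, SE 0.14, adjusted p = 0.166).

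CRF12 was the 1 member of the 43 whose naa20-1 samples all lay above Col-0, at 7.72, 7.91 and 7.67 in naa20-1, against 7.67, 7.38 and 7.49 in Col-0. The lowest naa20-1 sample and the highest Col-0 sample were almost level, and the difference was not called (0.25, SE 0.11, adjusted p = 0.364). CRF6, which delays leaf senescence, was at 6.74, 6.57 and 7.04 in naa20-1, against 6.85, 6.88 and 6.99 in Col-0, with overlapping groups and an interval from -0.42 to 0.18. CRF4 (difference 0.03) overlapped as well, as did the dim genes CRF1 (-0.14) and CRF9 (-0.03). As an average of the 10 CRF genes the naa20-1 samples were alike, at -0.30, -0.28 and -0.30 relative to the Col-0 mean, against 0.06, -0.04 and -0.03 in Col-0. The 19 root markers averaged -0.16, -0.29 and -0.27 in naa20-1 on the same scale, against -0.04, 0.05 and -0.005 in Col-0, and their part in the CRF differences was not tested.

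Cytokinin perception and signalling genes were compared as a list of 23, of which 1 fell, 0 rose and 22 were not called. At an unadjusted p under 0.05, 8 were lower and 2 higher, and the median difference was -0.08. ARR15, a type-A response regulator that is induced by cytokinin and dampens its signal, fell to 5.78, 5.13 and 5.35 in naa20-1, against 6.96, 7.35 and 6.73 in Col-0. The means were 5.42 ± 0.33 in naa20-1 and 7.01 ± 0.31 in Col-0, a level 3.02-fold lower (log2 -1.60, SE 0.21, adjusted p = 0.0193). The ARR15 call held without naa20-1 replicate 1 (adjusted p = 0.0274) and was lost at adjusted p-values from 0.0505 to 0.0758 when any other sample was left out.

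ARR7, the closest relative of ARR15, was at 6.72, 7.07 and 8.01 in naa20-1, against 8.37, 8.34 and 8.59 in Col-0. It was lower in all 3 naa20-1 samples, with replicate 3 near Col-0, and was not called (difference -1.17, SE 0.30, adjusted p = 0.138). AHP6, an inhibitory phosphotransfer protein gene (difference -0.48, SE 0.11, adjusted p = 0.112), and AHK4, a cytokinin receptor gene (-0.37, SE 0.10, adjusted p = 0.147), were also lower in all 3 naa20-1 samples. Of the 10 type-A genes, a subset set apart after the values were seen, 5 had groups that did not overlap and were lower, and the other 5 overlapped. Across all genes, 10.5% were lower and 10.6% higher without overlap, but a subset picked in this way gives no test. Besides ARR15 and ARR7 the lower genes were ARR16 (difference -0.69), ARR4 (-0.36) and ARR17 (-0.35), none of the 3 past the threshold. ARR5, ARR6, ARR3, ARR8 and ARR9 had differences from -0.20 to 0.19. Of 16 genes of cytokinin synthesis and breakdown, 0 were called by limma, and 1 was higher and 2 lower at an unadjusted p under 0.05. CKX4, a cytokinin oxidase gene, had a difference of -0.60 (SE 0.16, adjusted p = 0.154) and IPT7, a gene of cytokinin synthesis, of -0.31 (SE 0.11, adjusted p = 0.265).

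**Figure D4:**
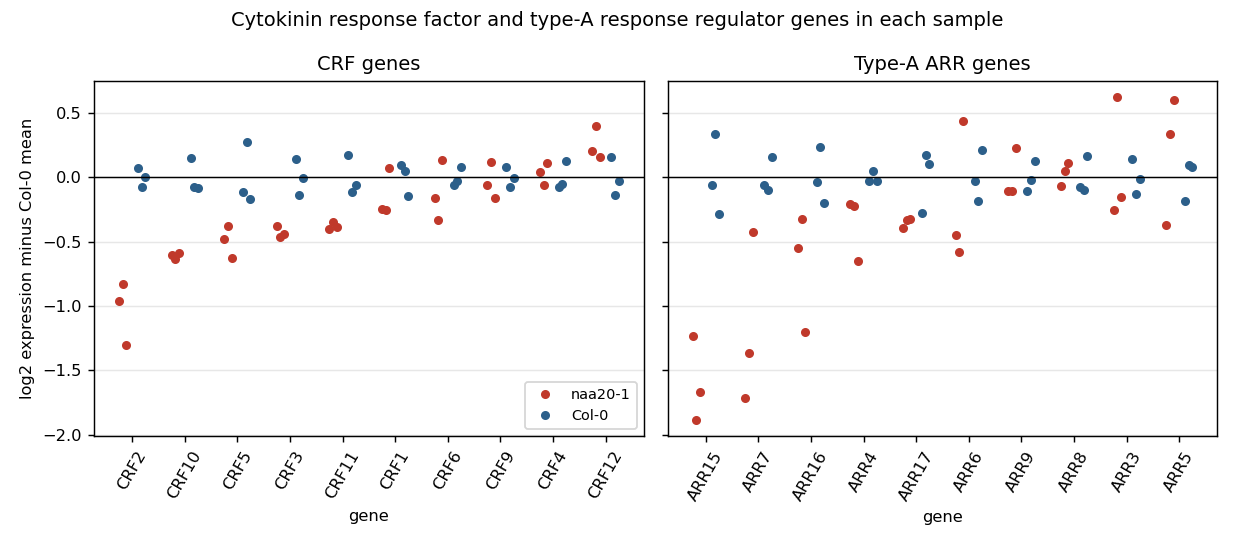
Log2 expression of the 10 CRF genes among the members (left) and 10 type-A response regulator genes (right) in each sample. Values are relative to the Col-0 mean of each gene. Each point is 1 sample, with naa20-1 left of Col-0, and genes are sorted by their difference. ARR15 and CRF2 lie lowest among the called genes, and in ARR7 naa20-1 replicate 3 is nearer to Col-0 than the other 2 mutant samples.

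Other genes of the AP2/ERF family, 34 in a list outside the 43 members, had a median difference of 0.004, with 17 negative and 17 positive differences. Of these, 1 fell, 0 rose and 33 were not called. ERF53, a drought-response factor, was at 4.31, 4.50 and 4.70 in naa20-1, against 5.37, 5.16 and 5.29 in Col-0 (difference -0.77, SE 0.12, adjusted p = 0.0352). ERF53 stayed called without naa20-1 replicate 3 (adjusted p = 0.0378), and any other omission gave adjusted p-values from 0.0834 to 0.131. SNZ, a floral repressor with 2 AP2 domains, had a difference of -0.41 (SE 0.08, adjusted p = 0.0819), DREB19 of -0.42 (SE 0.10, adjusted p = 0.127) and DDF2, the paralog of DDF1, of -0.31 (SE 0.08, adjusted p = 0.154). DDF2 was dim. Whether the 43 members differ from the other family genes was not tested.

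Of the members, 9 stand beside another member in the gene order of assembly TAIR10.1, in 5 pairs of direct neighbours. CBF2, CBF3 and CBF1 follow each other on chromosome 4, with differences of -0.39, 0.002 and -0.16, and ERF6 and ERF1A are neighbours on the same chromosome, with -0.38 and -0.10. ERF98 and ERF1 on chromosome 3 had differences of 0.07 each, and ERF12 and ERF11 on chromosome 1 of -0.08 and -0.16. No neighbouring pair held a called gene. The 3 CBF genes are similar in sequence, so their signals may share RNA of each other.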

How the data were processed

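Transcript levels of 3 naa20-1 and 3 Col-0 seedling samples were measured on Affymetrix arrays, per the labels' protocols. The submitters' processing notes name RMA, a method that corrects background, equalises the arrays' distributions and summarises probes per probe set. The deposited values were read as the log2 expression that RMA gives, from their range and shared distribution. The array type, probe set definition and software version are not named in the labels used here. Of 27827 probe sets, 27241 matched a locus in a RefSeq gene table (assembly TAIR10.1), used for names and gene order only. Names not in that table, such as NAA20 for AT1G03150, came from general knowledge. For arrays, their number limits the precision.

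The values as deposited were fitted in limma 3.58.1 (lmFit, eBayes; R 4.3.3), with genotype as the only term, a two-sided test and Benjamini-Hochberg adjustment over the 27241 genes. The procedure was tested on simulated data. Members with an unadjusted p under 0.05 are given by sample, and each list names called genes and up to 4 with the smallest p. The members and lists were chosen with earlier results of these data known. Alternatives were a repeated quantile normalization, median centring, a filter on dim probe sets, a variance trend with robust fit, all probe sets, a block for replicate number, and omission of each sample in turn. Promoter and protein sequences were not used here.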

Additional observations from a re-analysis of the deposited data

How the results depend on the processing

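Over the alternatives, 0 members were called higher in every setting, and ERF2 and CRF2 were called lower in every setting that kept all 6 samples. The main count of 3 members lower became 6 with a variance trend and robust fit (ERF3, ERF4 and ERF15 added) and 2 with the replicate number as a block (CRF10 lost, adjusted p = 0.0914), and lay between 0 and 2 when 1 sample was left out. The cause of these changes was not tested. Leaving out a sample or adding a block leaves fewer degrees of freedom, and the part this had in the lost calls was not tested either. All genes called were 104 higher and 209 lower, against 311 and 486 with the trend and robust fit, 61 and 129 with the replicate block, 11 to 63 higher and 51 to 134 lower with 1 sample left out; without the dimmest 40% the figures were 151 and 276. Genes of the pathway lists called were 0 higher and 7 lower, against 2 and 14 with the trend and robust fit, 1 and 11 without the dimmest 40%, 0 and 3 with the replicate block, and 0 higher and 0 to 8 lower with 1 sample left out. Of 93 genes recomputed, namely the 43 members, list genes chosen by the naming rule and 8 named after their values were seen, 81 kept their direction in every alternative run. The other 12, all uncalled, turned sign only when 1 sample was left out, with differences from -0.073 to 0.049 for CBF3, -0.18 to 0.45 for COR15A, -0.0087 to 0.094 for CRF4, -0.11 to 0.029 for CRF9, -0.16 to 0.035 for DDF1, -0.22 to 0.15 for ERF12, -0.013 to 0.22 for ERF98, -0.15 to 0.12 for HRE2, -0.10 to 0.20 for ORA59, -0.083 to 0.063 for RAP2.2, -0.23 to 0.094 for RAP2.3 and -0.10 to 0.059 for RAP2.4. The 13 dim members have no reliable size of difference. The replicate numbers were not taken as pairs, since deviations of same-numbered samples correlated at only 0.02, 0.06 and 0.01. Differently numbered samples correlated at -0.05, 0.02, -0.02, -0.04, -0.01 and -0.01. The largest value was that of a same-numbered pair, while naa20-1 replicate 3 correlated best with Col-0 replicate 1. The replicate numbers are those of the sample titles. The descriptions number the same naa20-1 samples 1, 3 and 4, which would match naa20-1 replicate 2 with Col-0 replicate 3 (correlation -0.01), and no block was fitted on that numbering; the replicate block is therefore an alternative and not the main result.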
